A study of Mus musculus with 9 samples.

Results

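The ribosomal protein genes of embryonic mouse neocortex were followed across 4 cell classes and 9 single-cell libraries. A gene was a member when its symbol began with Rpl or Rps and a digit, or was *Rpsa*, *Rplp0*, *Rplp1* or *Rplp2*, and when it was listed in all 9 deposited files. Symbols with "-ps", which name pseudogenes, and the Rps6k kinases were left out. This gave 84 of the 17487 genes listed in any file, and of the 12546 genes listed in all of them. Of the 84 members, 50 encode proteins of the large subunit and 33 of the small subunit. The remaining member, *Rps19bp1*, meets the rule by its letters only and encodes a partner protein of Rps19, so it was counted with the members but in neither subunit. All 84 members passed the filter on low values in each fit described here.

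Wild-type (WT) and *Tcf4* knockout (KO) embryos were littermates from *Tcf4* haploinsufficient parents, all under the strain label Tcf4ex4WT/lacZ, and neocortices were taken at E18.5. KO embryos carried on both alleles a knockout-first cassette with lacZ and neomycin resistance in front of exon 4, and a shorter *Tcf4* isoform is known to persist from this allele. Embryos of both sexes were used, each neocortex was dissociated on its own, and 1 library per embryo was made with the 10x Chromium 3′ v2 kit, which counts transcripts as unique molecular identifiers (UMIs). There were 5 WT and 4 KO libraries (WT1 to WT5, KO1, KO2, KO4 and KO5). The genotypes were compared between WT2, WT3 and WT4 and KO4 and KO5, taken to be the libraries that the study compared.

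The ribosome reads messenger RNA on its small subunit and joins amino acids on its large subunit. Each subunit is built from ribosomal RNA and many small proteins, nearly all of them present once per ribosome. Most of these proteins are encoded by 1 highly expressed gene each, whose messenger RNA starts with a run of pyrimidines that places its translation under the control of growth signalling. A few have a paralogous protein from a second gene, such as *Rpl22l1* beside *Rpl22* and *Rps27l* beside *Rps27*. In the developing brain dividing progenitors are known for their high demand for new ribosomes.

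The start regions of 6 members are shown. *Rpl22l1* and *Rps27l* had the widest differences of single members from neurons in progenitors and in glia, and *Rpl22* and *Rps27* are their partner genes. *Rps12* and *Rpl35* set libraries deposited on different scales apart in opposite directions. The *Rpl22l1* gene lies at chr3:28805436-28807424, *Rpl22* at chr4:152325742-152334071, *Rps27l* at chr9:66946086-66949516 and *Rps27* at chr3:90212522-90213651 (GENCODE vM21, GRCm38). The windows below come from RefSeq (GRCm38.p6), are written 5′ to 3′ on the strand of the gene, and lie at chr3:28805501-28805526, chr4:152325711-152325736, chr9:66946071-66946096, chr3:90213633-90213658, chr10:23787183-23787208 and chr2:39005117-39005142 in the order shown, across or close to the start of the transcript. Capitals mark the longest unbroken run of C and T between 15 bases before and 30 bases after the RefSeq start.
Rpl22l1: caagcccgTTCTCTTCCCacggctgc
Rpl22: ttcgCCCTgggaaaagcaatagctgg
Rps27l: ccaCTCCTCCCCgccgcctctatccc
Rps27: cgctttcgCTCCTTTCCggcggtgac
Rps12: ccgccggCCTTTTCCCCTgccgccgc
Rpl35: cccgCCCTTTCCTCTTTCTCTCgaac
The run was 10 bases in *Rpl22l1* and 4 in *Rpl22*, and 9 bases in both *Rps27l* and *Rps27*. Of the ribosomal protein genes, 62 had an entry in this table, and 29 of them (46.8%) held a run of at least 8 pyrimidines in this stretch, against 4476 of 27025 entries overall (16.6%). A run is a description of these letters and not a measured start site.

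Kept cells numbered between 118 (KO2) and 6173 (WT4) per library, with medians of 2217 to 4359 UMIs, and deposited totals ran from 348105 to 29767293 UMIs. The level of *Tcf4*, read here by a 3′ tag that lies outside the inserted cassette and so does not test a label, was 12.2 to 12.6 UMIs per 10000 in the WT libraries compared and 9.29 and 7.59 in KO4 and KO5, but at 7.20 in WT5, 4.65 in WT1, 16.7 in KO1 and 9.12 in KO2. The study left out a WT animal with less *Tcf4* than its KO, taken here to be WT5. The label of WT5 was therefore treated as in doubt, although this tag cannot settle it. No pair of libraries shared more than 46 cell barcodes. Cells were put into classes by the number of distinct markers with a UMI. Profiles of at least 20 cells gave 8 libraries with progenitors (cycling cells of any lineage), 9 with neurons, 3 with glia (WT2, WT3 and WT4) and 2 with microglia (WT4 and KO4). The progenitor markers were cell cycle genes apart from *Eomes* and *Neurog2*, so intermediate progenitors out of cycle did not pass this gate. In progenitors the markers of their own class summed to 59.1 to 68.4 UMIs per 10000 in WT2, WT3 and WT4 but to 30.8 to 32.7 in KO4, KO5 and WT5, while neuron markers summed to 16.7 to 25.1 and to 32.8 to 40.7 in the same cells. The microglia of WT4 held 203 UMIs per 10000 of microglia markers and those of KO4 held 50.8, with neuron markers at 26.7 and 48.1. Libraries had been deposited on 2 scales, as natural logs (WT1, WT2, WT3, KO1 and KO2) or as counts (WT4, WT5, KO4 and KO5).

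Ribosomal protein genes took up between 15.3% (WT3) and 22.2% (KO4) of all UMIs of a library. In neurons the members summed to 1922 ± 247 UMIs per 10000 (mean ± s.d., n = 9 libraries), of which 1087 ± 139 came from the large and 835 ± 110 from the small subunit. In progenitors the sum was 2002 ± 243 (n = 8), with 1121 ± 126 from the large and 881 ± 119 from the small subunit. Sums of 1737 ± 183 (n = 3) and 2312 ± 14.1 (n = 2) were found in glia and microglia. The libraries spread more widely than the classes. Neurons alone ran from 1466 in WT3 to 2201 in KO4, which is 1.50-fold.

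**Figure D1:**
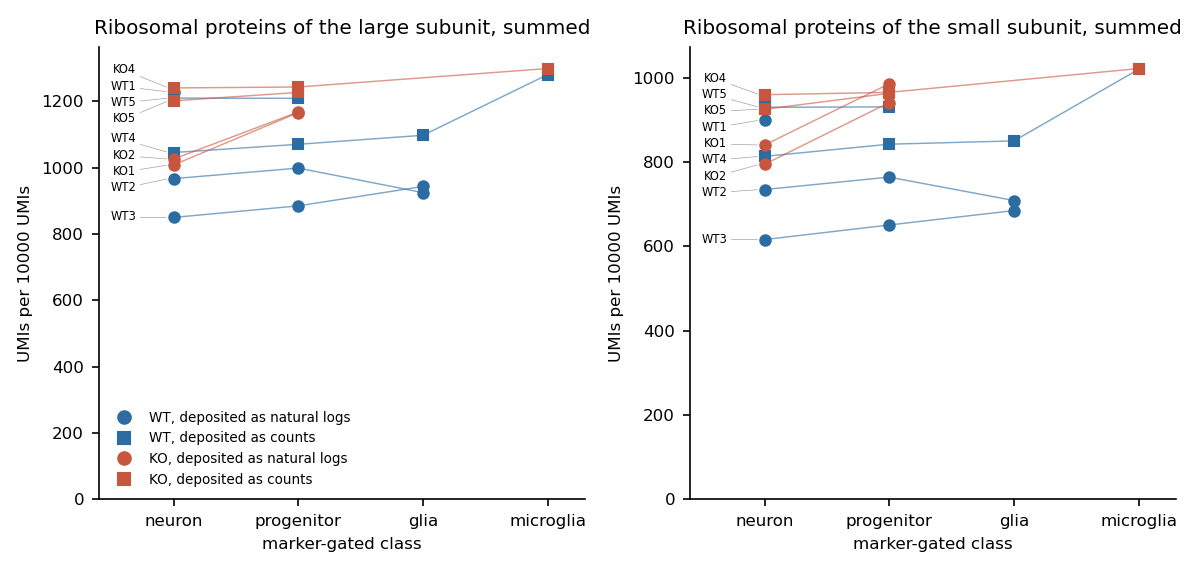
Summed UMIs per 10000 of the ribosomal protein genes of the large (left) and the small subunit (right) by cell class, with 1 point per library, lines joining the classes of a library, colour for genotype and shape for the scale of the deposited file. Within a class the libraries lie far apart, from 1466 to 2201 in neurons for both subunits together, and the classes overlap.

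Within libraries, the summed level was higher in progenitors than in neurons in 8 of 8 libraries, by 106 ± 120 UMIs per 10000 on average, or 5.86% of the neuronal sum. The rise was 304 in KO1 and 289 in KO2, and at most 69.5 in the other 6 libraries, down to 0.09 in WT5. KO1 held 81 progenitors and 119 neurons, KO2 held 24 and 22, and WT5 held 24 progenitors. The remaining libraries held 44 (KO5) to 468 (WT4) progenitors. The large subunit was higher in 7 of 8 libraries and the small subunit in 8 of 8. The ratio of large to small subunit UMIs was lower in progenitors in 8 of 8 libraries, by 0.02 on average, with the widest gap of -0.05 in KO2. Glia differed from neurons of the same library by -68.3 in WT2, 162 in WT3 and 88.8 in WT4, so that no common direction was seen. Microglia were above neurons by 442 in WT4 and by 121 in KO4. The mean rise of progenitors was 98.0 (higher in 6 of 8 libraries) without mitochondrial and haemoglobin UMIs, 70.0 (3 of 5 libraries) in cells under 3000 UMIs and 59.7 (6 of 6) with the gate on thinned cells. These sums are given as a description, without a test.

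Single members were compared between progenitors and neurons with library as a term, on log2(UMIs per 10000 + 1) with limma, and calls were made at an adjusted p below 0.05 over all 10440 genes tested. The 4 classes of all libraries entered 1 fit, so a fitted difference need not equal that of the values printed for the few libraries that hold a class. Of the 84 members, 15 were higher in progenitors, 8 of the large and 7 of the small subunit, and 2 were lower, 1 of each. Among all genes tested, 9.98% were called higher and 8.8% lower. The median difference was 0.09 on the log2 scale over the members and -0.00 over all genes, and 64 of 84 members lay above 0, against 49.6% of all genes.

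The widest class difference belonged to *Rps27l*, which encodes a variant of the small subunit protein Rps27 and is known as a target of p53. In neurons it was found at 4.21, 2.64, 2.60, 2.77 and 2.92 UMIs per 10000 in WT1 to WT5 and at 4.50, 3.13, 2.94 and 3.06 in KO1, KO2, KO4 and KO5. In progenitors it was at 5.35, 5.70, 5.98 and 4.32 in WT2 to WT5 and at 9.72, 4.09, 4.53 and 5.55 in the 4 KO libraries. Progenitors were the higher class in 8 of 8 libraries. In these 8 libraries *Rps27l* averaged 5.65 ± 1.78 in progenitors and 3.07 ± 0.609 in neurons, a log2 difference of 0.68 ± 0.08 (SE; limma, adjusted p = 9.94e-07).

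*Rpl22l1*, which encodes a paralogue of the RNA-binding large subunit protein Rpl22, followed. In neurons it was found at 8.97, 7.13, 7.82, 6.80 and 8.42 UMIs per 10000 in WT1 to WT5 and at 9.28, 7.63, 8.40 and 7.47 in KO1, KO2, KO4 and KO5. In progenitors it was at 11.8, 12.6, 9.83 and 12.3 in WT2 to WT5 and at 17.0, 13.2, 9.92 and 8.62 in the KO libraries. Again every library had the higher value in progenitors, with 11.9 ± 2.60 against 7.87 ± 0.80 and a log2 difference of 0.52 ± 0.07 (limma, adjusted p = 1.05e-05). Exact sign-flip tests over the 8 libraries gave p = 0.0078125 for *Rps27l*, *Rpl22l1* and *Rpl22* each (two-sided), the smallest value that 8 libraries allow.

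Of the partner genes, *Rpl22* was itself higher in progenitors, by 0.28 ± 0.06 on the log2 scale (limma, adjusted p = 0.00135; higher in 8 of 8 libraries), whereas the difference of *Rps27* was -0.05 (higher in 3 of 8 libraries; exact sign-flip p = 0.211). The share of *Rps27l* in the UMIs of its pair was higher in progenitors than in neurons in 8 of 8 libraries, running from 9.09% to 20.1% and from 7.38% to 9.42%. In WT2, WT3 and WT4, which also held glia, it was 14.6%, 18.4% and 20.1% in progenitors, 12.9%, 15.9% and 15.6% in glia and 7.38%, 8.61% and 9.42% in neurons. Glia thus lay between the other classes in each of these 3 libraries. The share of *Rpl22l1* in its pair was higher in progenitors than in neurons in 7 of 8 libraries. It was 58.5%, 63.8% and 47.2% in the progenitors of WT2, WT3 and WT4, 61.6%, 67.2% and 49.0% in their glia and 50.2%, 57.6% and 42.1% in their neurons, so that glia were highest in each. In microglia of WT4 and KO4 the *Rpl22l1* share was 34.5% and 39.7%, below the 42.1% and 41.5% of their neurons, and the *Rps27l* share was 11.7% and 9.50%, above the 9.42% and 7.79% of their neurons. Shares are not corrected for transcript length, and only their change between classes can be read. The log2 differences of the other pairs were small and not called, with *Rpl36a* at 0.04 and *Rpl36al* at 0.10, and *Rpl7* at 0.01 and *Rpl7l1*, whose product acts in the nucleolus, at 0.08. *Rpl39* stood at 0.07 and *Rpl10*, which joins the large subunit late in its assembly, at -0.11, while the paralogues *Rpl39l*, *Rpl10l*, *Rpl3l* and *Rps4l* were no members by the rule.

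**Figure D2:**
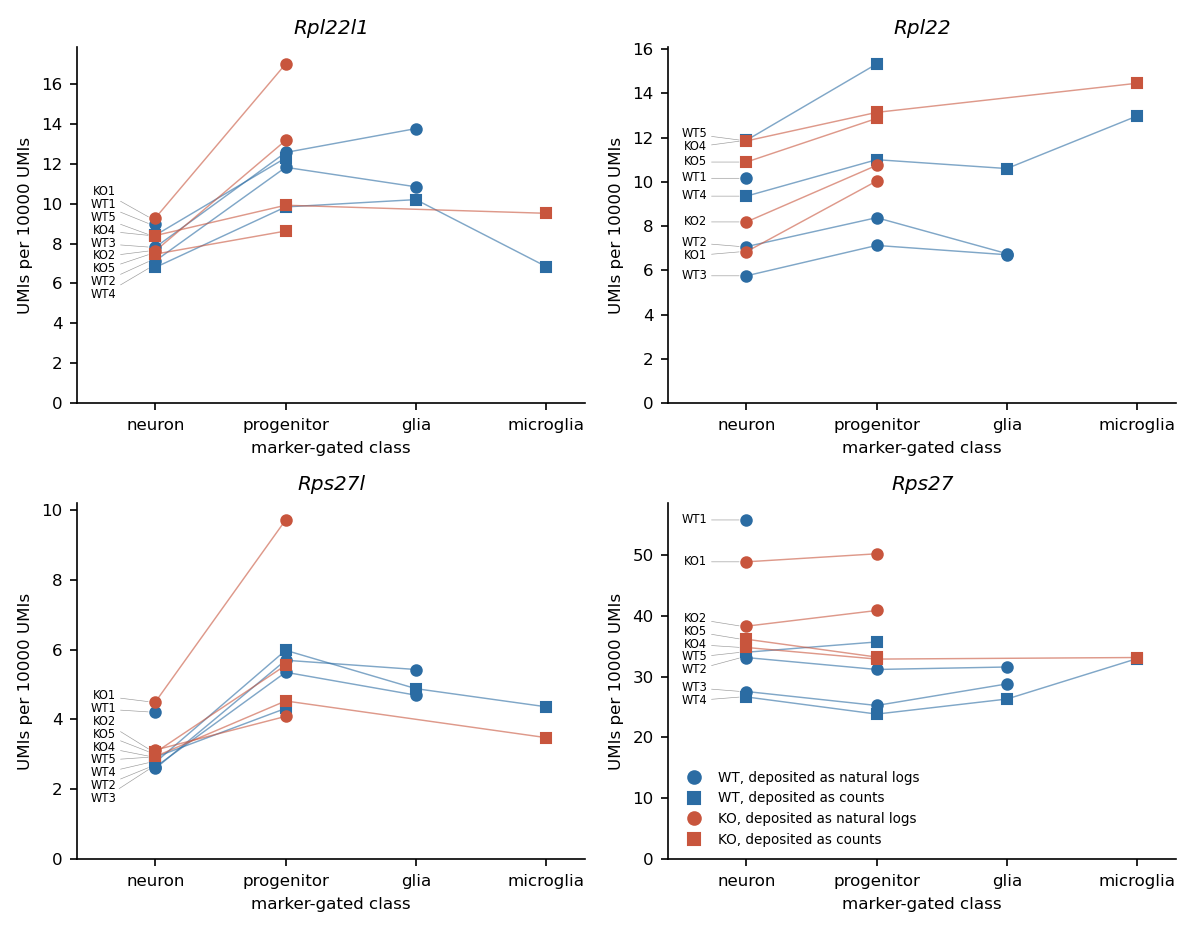
Level of Rpl22l1, Rpl22, Rps27l and Rps27 (UMIs per 10000) by cell class, with 1 point per library, lines joining the classes of a library, colour for genotype and shape for the scale of the deposited file. From neurons to progenitors the lines of Rpl22l1, Rps27l and Rpl22 rise in 8 of 8 libraries and those of Rps27 in 3 of 8.

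The other members called higher had smaller differences. *Rps4x*, the X-linked gene for a small subunit protein, was found at 27.0 to 34.9 UMIs per 10000 in progenitors and at 20.7 to 28.8 in neurons, a log2 difference of 0.28 ± 0.05 (limma, adjusted p = 0.000452; 8 of 8 libraries). *Rps3a1*, of the small subunit as well, differed by 0.24 ± 0.06 (limma, adjusted p = 0.00585; 8 of 8 libraries). *Rpl3*, whose protein reaches towards the catalytic centre of the large subunit, differed by 0.21, and the remaining 9 (*Rpl8*, *Rps9*, *Rpl29*, *Rps12*, *Rpl10a*, *Rps18*, *Rps24*, *Rpl32* and *Rpl14*) by 0.17 to 0.23. The stalk genes, whose products bring translation factors to the ribosome, were not called, with 0.10 for both *Rplp0* and *Rplp1* and 0.07 for *Rplp2*, nor was *Rpsa*, a small subunit protein also known as a laminin receptor precursor (0.13). *Rps19bp1* was at -0.14, not called.

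*Rpl38* and *Rps7* were lower in progenitors. *Rpl38*, a large subunit gene known for its part in the translation of Hox messenger RNAs, had levels of 16.8 to 41.9 UMIs per 10000 in progenitors and 21.1 to 46.5 in neurons. It was lower in 8 of 8 libraries, by -0.16 ± 0.05 on the log2 scale (limma, adjusted p = 0.0266). *Rps7*, a small subunit protein known to bind Mdm2, was lower in 6 of 8 libraries by -0.17 ± 0.05 (limma, adjusted p = 0.035). The number of members called in either direction was 17 here, but 6 with edgeR and TMM scaling (41.7% of all genes), 31 with edgeR and RLE scaling (42.9%) and 28 with DESeq2 (35.5%), and it was 9 without WT2, 10 without WT3 and 9 without KO1. *Rps27l* and *Rpl22l1* were called in all 24 alternatives tried, with log2 differences of 0.61 to 0.99 and of 0.43 to 0.59.

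Glia were called by markers of the astrocyte and oligodendrocyte lineages and compared with neurons in WT2, WT3 and WT4. Several of these markers, such as *Slc1a3* and *Hes5*, are shared with radial glia, so non-cycling radial glia were not set apart from this class. *Rps27l* was at 4.70, 5.43 and 4.88 UMIs per 10000 in the glia of these libraries and at 2.64, 2.60 and 2.77 in their neurons, and *Rpl22l1* at 10.8, 13.8 and 10.2 against 7.13, 7.82 and 6.80. For both genes the ranges of the classes did not meet. The log2 differences were 0.61 ± 0.12 for *Rps27l* (limma, adjusted p = 0.000433) and 0.59 ± 0.11 for *Rpl22l1* (limma, adjusted p = 0.000211). Also called higher were *Rps10* and *Rps18*, both of the small subunit, by 0.27 and 0.26 (limma, adjusted p = 0.0301 and 0.0481), and the large subunit gene *Rpl13* by 0.24 (limma, adjusted p = 0.0451). *Rps7* was lower in glia as in progenitors, by -0.23 (limma, adjusted p = 0.0457).

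In total 5 members were called higher and 1 lower in glia, while 11.8% of all genes were called higher and 7.75% lower. The median member differed by 0.04 and the median gene by -0.01. With edgeR and TMM scaling, 2 members were higher and 2 lower, where 30.4% of all genes were called in either direction, and with RLE scaling 10 were higher and none lower, where 19.6% of all genes were called higher. Without WT2, WT3, WT4 or KO1 the members called numbered 3, 2, 2 and 3.

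Between progenitors (8 libraries) and glia (3 libraries), compared in the same fit, no member was called (0 of 84), whereas 13.7% of all genes were called in either direction (limma; 2 members at an unadjusted p below 0.05, and 0 called with edgeR and with DESeq2). The members with the largest differences were *Rps26* (0.24; limma, adjusted p = 0.0792), *Rpl36al* (0.23) and *Rpl3* (0.22) on the side of progenitors, and *Rps27rt* (-0.15), *Rps10* (-0.13) and *Rpl13* (-0.13) on the side of glia. Within WT2, WT3 and WT4, *Rps26* and *Rpl3* were higher in progenitors in 3 of 3 libraries and *Rpl36al* in 1 of 3, and *Rps27rt*, *Rps10* and *Rpl13* were lower in 3 of 3. The summed levels of the classes differed by 0.61 ± 115 UMIs per 10000 within these 3 libraries.

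Microglia, the resident macrophages of the brain, had profiles in WT4 (58 cells) and KO4 (30 cells) only. All 33 small subunit genes and 47 of the 50 large subunit genes lay above the neurons of the same libraries, and the median member differed by 0.19 on the log2 scale, against -0.04 for all genes. Of the members, 12 were called higher and 1 lower, and 3.81% of all genes were called higher and 3.56% lower. *Rps29* was found at 55.1 and 49.3 UMIs per 10000 in the microglia of WT4 and KO4 and at 28.8 and 44.3 in their neurons, a log2 difference of 0.91 within WT4 and of 0.15 within KO4. In the fit over all classes and libraries the difference was 0.59 ± 0.11 (limma, adjusted p = 0.00133). *Rps12* was at 38.4 and 34.6 in microglia and at 21.0 and 30.9 in neurons (0.84 and 0.16 on the log2 scale), with a fitted difference of 0.59 ± 0.13 (limma, adjusted p = 0.00505). The gap between the classes was wider in WT4 than in KO4 for both genes, as it was for the summed level.

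The other large differences of microglia were those of *Rpl35a* (0.47; limma, adjusted p = 0.00564) and *Rps24* (0.43; limma, adjusted p = 0.017), both known from the inherited anaemia Diamond-Blackfan, and of the stalk gene *Rplp1* (0.40; limma, adjusted p = 0.0153). *Rpl22*, *Rps20*, *Rps6*, *Rpl32*, *Rpl39*, *Rpl37a* and *Rpl19* were called as well. *Rps19bp1*, which is no ribosomal protein, was lower, at 0.597 and 0.194 UMIs per 10000 against 1.09 and 1.10 in neurons (log2 difference -0.60; limma, adjusted p = 0.0041). The paralogues that set progenitors and glia apart were not called here, *Rps27l* with 0.36 (limma, adjusted p = 0.119) and *Rpl22l1* with 0.17 (limma, adjusted p = 0.452), and these differences between class contrasts were not tested. The count of members called higher was 1 with edgeR and TMM scaling (4.51% of all genes), 59 with RLE scaling (6.55%) and 53 with DESeq2 (6.74%). Leaving out WT4 left 1 member called in either direction.

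**Figure D3:**
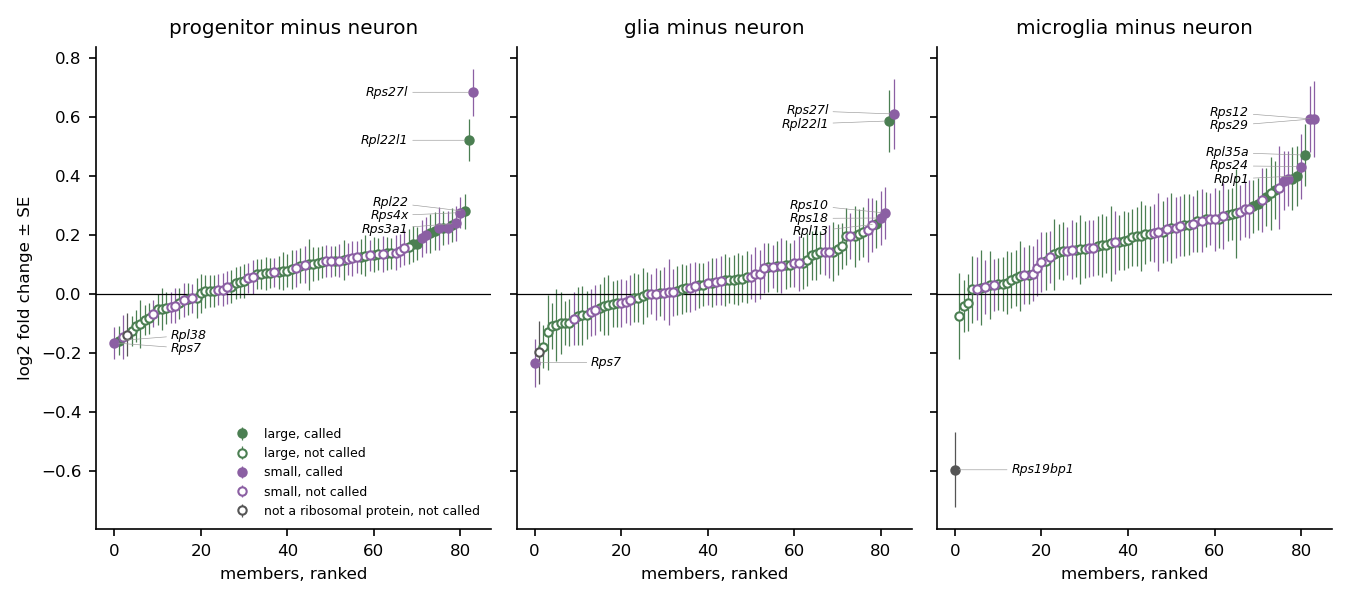
Log2 difference from neurons of the same libraries (vertical axis, with standard errors as bars) of all 84 members, ranked by their value, for progenitors, glia and microglia, with colour for the subunit and filled points for called members. Rps27l and Rpl22l1 stand apart at 0.52 to 0.68 in progenitors and glia, and in microglia Rps12 and Rps29 are highest at 0.59.

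Neurons were divided by transmitter markers into glutamatergic and GABAergic neurons in 6 libraries. The summed level was lower in glutamatergic neurons in 5 of 6 libraries, by -57.7 ± 73.9 UMIs per 10000 on average, from -186 in WT3 to 7.92. No member was called, while 0.875% of all genes were (limma; 10 members at an unadjusted p below 0.05, lowest adjusted p = 0.108, and 0 called with edgeR and with DESeq2). The largest differences were those of *Rpl22l1* (0.15), *Rpl36a* (0.12) and *Rpl36al* (0.11) towards glutamatergic neurons and of *Rps29* (-0.15), *Rpl21* (-0.15) and *Rpsa* (-0.15) towards GABAergic neurons.

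The genotypes were compared within progenitors and within neurons, with the library as the replicate. Glia and microglia gave no genotype test, since KO4 held 13 and KO5 1 glial cell and only WT4 and KO4 had microglia profiles. In progenitors the members summed to 1738 ± 190 UMIs per 10000 in the 3 WT and to 2200 ± 13.2 in the 2 KO libraries, 26.6% more. In neurons the sums were 1676 ± 198 and 2164 ± 52.1, 29.1% more. Both KO libraries lay above all 3 WT libraries for 48 of 84 members in progenitors, where this held for 14.2% of all genes, and for 54 of 84 members in neurons, where it held for 10.2%. The WT5 library, left out of this comparison for its low level of *Tcf4* and with its label in doubt, was at 2141 in both classes and so close to the KO libraries. When all libraries were taken as labelled, the neuronal sums were 1859 ± 288 (5 WT) and 2000 ± 193 (4 KO), and those of progenitors 1838 ± 254 (4 WT) and 2166 ± 44.1 (4 KO).

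In progenitors 7 members were called higher in KO and none lower, against 2.14% of all genes called higher. *Rps21*, of the small subunit, was found at 12.9, 8.14 and 14.6 UMIs per 10000 in the progenitors of WT2, WT3 and WT4, against 23.1 and 23.6 for KO4 and KO5, with a log2 difference of 0.96 ± 0.20 (limma, adjusted p = 0.0066). *Rpl30* was at 10.6, 8.31 and 18.52 against 25.1 and 21.8 (0.93; limma, adjusted p = 0.0353). *Rpl31* was at 16.8, 13.1 and 25.3 against 34.2 and 35.0 (0.92; limma, adjusted p = 0.0135). In each of the 3 genes WT3 was lowest and WT4 the WT library nearest to the KO libraries.

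*Rplp1* of the stalk differed by 0.84 (limma, adjusted p = 0.0308), *Rpl12*, at the base of the stalk, by 0.81 (limma, adjusted p = 0.0265), *Rps26*, near the channel where the messenger RNA leaves, by 0.71 (limma, adjusted p = 0.023), and *Rpl39*, in the exit tunnel of the growing protein, by 0.67 (limma, adjusted p = 0.0375). In the progenitors of WT5 these 4 genes were at 44.1, 16.0, 32.2 and 49.1 UMIs per 10000, *Rps21* at 23.8, *Rpl30* at 22.6 and *Rpl31* at 32.0, all of them above WT2, WT3 and WT4. With WT5 added to the WT group no member was called, nor without KO5, nor with all libraries as labelled, and 36 were called without WT4. Leaving out WT4 set libraries deposited as natural logs (WT2 and WT3) against libraries deposited as counts (KO4 and KO5). Without WT2, WT3 and KO4 the count was 3, 1 and 2. The shares of all genes called in these fits are not given here, so the counts are not read as particular to the members. With the replicate number as a block, which compares WT2, WT4 and WT5 with KO2, KO4 and KO5 and so takes in WT5, 0 members were called.

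In neurons no member was called between the genotypes (limma; smallest adjusted p = 0.0829), where 1.9% of all genes were called in either direction. At an unadjusted p below 0.05 there were 33 members, and of all genes 1906. *Rps12* had the largest difference, at 10.1, 6.76 and 21.0 UMIs per 10000 in WT2, WT3 and WT4, against 30.9 and 26.0 for KO4 and KO5 (log2 1.25 ± 0.44; limma, adjusted p = 0.189). It was followed by *Rps20* (0.98; limma, adjusted p = 0.163) and *Rplp1* (0.97; limma, adjusted p = 0.119), and on the other side lay *Rpl15* (-0.37; limma, adjusted p = 0.233), *Rpl35* (-0.34; limma, adjusted p = 0.519) and *Rpl7l1* (-0.17; limma, adjusted p = 0.21). The median member differed by 0.34 and the median gene by -0.04. With DESeq2, 23 members were called higher (3.43% of all genes), with edgeR and TMM scaling 2 (2.15%), and without WT4 limma called 36. The share of all genes called without WT4 is not given here, and that fit set log files against count files only.

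Several measures moved with the genotype groups. Neurons of KO4 and KO5 had medians of 2229 and 2173.5 UMIs per cell and haemoglobin and other blood genes at 32.2 and 73.1 per 10000, and those of WT2, WT3 and WT4 had medians of 2390 to 4201 UMIs and blood genes at 5.5 to 8.7. WT5 stood with the KO libraries in both, at 2190 UMIs and 46.3. Among neurons of 2500 to 3500 UMIs, the large subunit summed to 958 in WT2, 845 in WT3 and 1075 in WT4, and to 1244 in KO4, 1195 in KO5 and 1219 in WT5, so that the order of the libraries was as before. The part of these measures in the difference was not tested.

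The scale on which a library was deposited also moved with the groups, since WT2 and WT3 came as logs and WT4, KO4 and KO5 as counts. Within the log files the neuronal sums of KO and WT differed by 69.4 UMIs per 10000 (2 KO against 3 WT) and those of progenitors by 482 (2 against 2). Within the count files they differed by 164 in neurons and 173 in progenitors with WT5, and by 305 and 287 against WT4 alone. *Rps21* in progenitors differed by 0.78 on the log2 scale within the log files and by 0.31 within the count files, and *Rps12* in neurons by 0.21 and 0.17. Against WT4 alone, without WT5, the differences within the count files were 0.65 for *Rps21* and 0.42 for *Rps12*. A fit with the scale as a term called no member in progenitors or neurons, but it also took all libraries as labelled. With all libraries as labelled and no such term, no member was called in progenitors either. In neurons the main comparison had no call to begin with. The fit therefore cannot show what the scale alone changed.

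**Figure D4:**
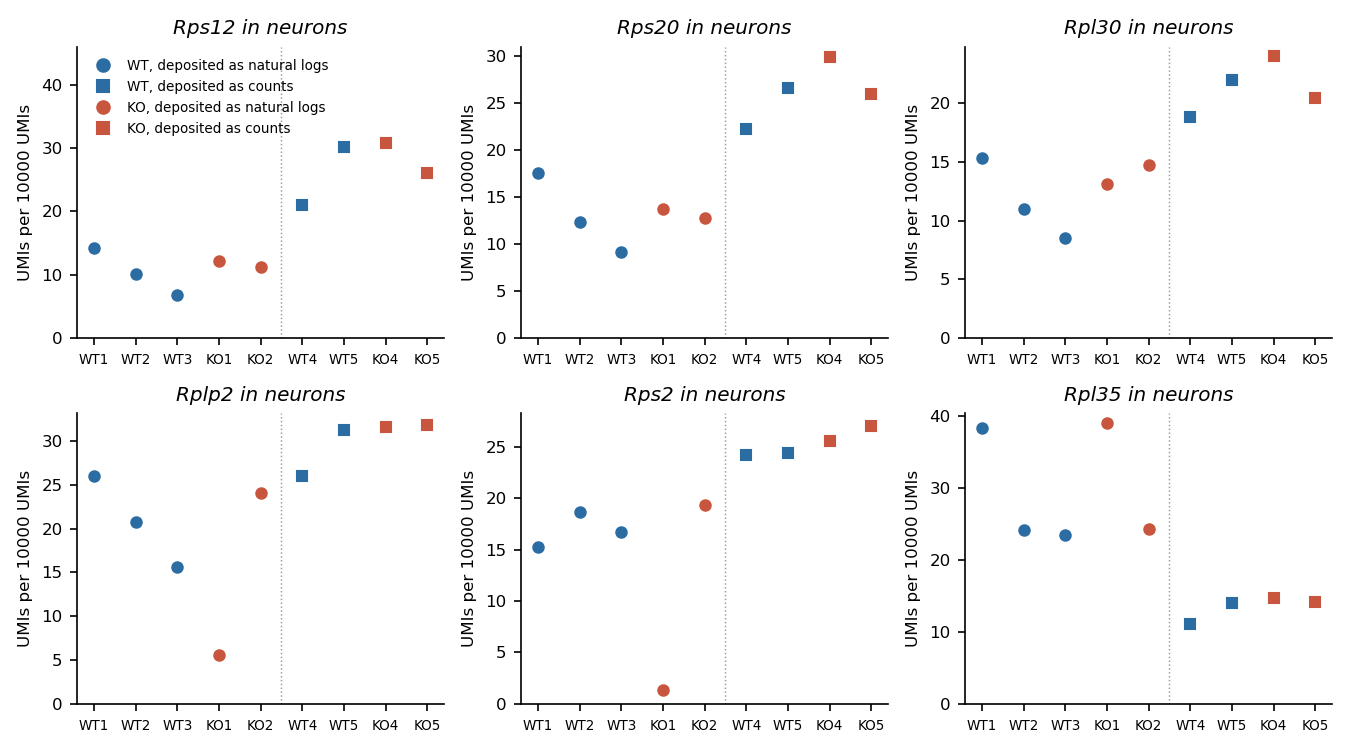
Levels of 6 members in neurons (UMIs per 10000), with 1 point per library, libraries deposited as natural logs on the left and as counts on the right of the dotted line, and colour for genotype. Rps12 lies between 21.0 and 30.9 in the 4 libraries deposited as counts and between 6.76 and 14.3 in the others, and Rpl35 runs the other way.

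Some members separated the deposited scales without overlap, and they were chosen here after their values were seen. In neurons 30 members were higher in all 4 libraries deposited as counts than in all 5 deposited as logs, and 1 was lower in all of them, where this held for 3.11% and 2.51% of the 8415 genes that were listed in all files and passed the filter on low values. In progenitors the numbers were 18 and 1, with 2.81% and 2.44% of 8812 such genes. *Rps12* was at 14.3, 10.1, 6.76, 12.1 and 11.2 UMIs per 10000 in the neurons of WT1, WT2, WT3, KO1 and KO2 and at 21.0, 30.1, 30.9 and 26.0 in those of WT4, WT5, KO4 and KO5. *Rpl35*, a large subunit protein at the exit tunnel, was at 38.3, 24.2, 23.5, 39.0 and 24.3 in the first and at 11.1, 14.0, 14.7 and 14.2 in the second set. The mean log2 difference, counts minus logs, was 1.26 for *Rps12*, 1.11 for *Rps2*, 0.97 for *Rps20*, 0.85 for *Rps10* and *Rpl12* and -1.06 for *Rpl35*. Both sets hold WT and KO libraries, and the scale of a file and the time or run in which it was made cannot be told apart.

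In KO1, 4 members stood far below all other libraries. *Rpl13* was at 2.02 UMIs per 10000 in its neurons, where the lowest other library had 28.6. *Rps2* was at 1.33 against 15.2, *Rplp2* at 5.54 against 15.6 and *Rps19bp1* at 0.213 against 1.09. In neurons, 8.92% of the same 8415 genes lay in KO1 more than 2-fold below the lowest other library. The 4 of 84 members are not above that share, so low values in KO1 were not particular to the members. In progenitors of KO1 *Rpl13* was low as well, at 2.45 against 28.4 to 38.9 in the other 7 libraries.

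The coding length of the members went along with the difference between libraries. Among the 82 ribosomal protein genes with a coding length, the shortest 27 (138 to 390 bases) had a median log2 difference of 0.44 between KO4 and KO5 and the 3 WT libraries in neurons, the middle 27 (399 to 576 bases) one of 0.41 and the longest 28 (582 to 1257 bases) one of 0.18. Of these, 26, 27 and 20 lay above 0. Other genes of the same coding lengths had medians of -0.01, -0.05 and -0.05. Over the 82 genes the difference and the length had a Pearson correlation of -0.456 and a Spearman correlation of -0.499, as a description of genes that share the same libraries.

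WT5 against the same 3 WT libraries gave 0.42, 0.46 and 0.14 from the shortest to the longest members. In WT1 the medians were 0.52, 0.20 and -0.03, with a Spearman correlation of -0.806. All of these comparisons share the 3 WT libraries as their reference. In the class comparison of progenitors and neurons, which is read within libraries, the medians were 0.07, 0.11 and 0.11.

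**Figure D5:**
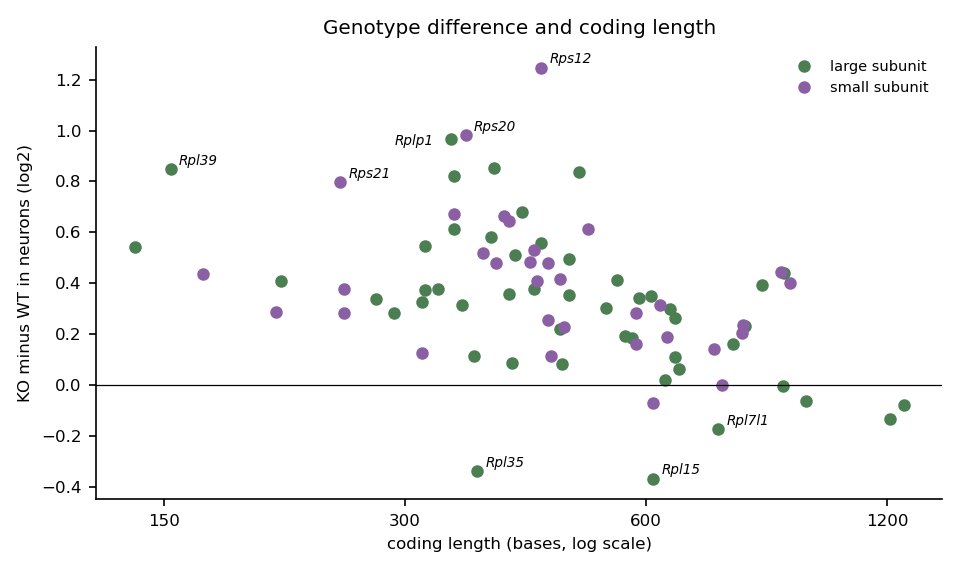
Log2 difference in neurons between KO4 and KO5 and the WT libraries WT2, WT3 and WT4 (vertical axis) against coding length (bases, log scale), with 1 point per ribosomal protein gene and colour for the subunit. Shorter members lie higher, with medians of 0.44, 0.41 and 0.18 from the shortest to the longest group.

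Whether the class difference itself differed between the genotypes was tested as an interaction in WT2, WT3, WT4, KO4 and KO5. Of the 84 members 1 was called, *Rpl22l1*, with a lower class difference in KO, where 4.4% of all genes were called lower. Its log2 difference between progenitors and neurons was 0.66 in WT2, 0.62 in WT3 and 0.47 in WT4, against 0.22 in KO4 and 0.18 in KO5. In the other libraries it was 0.50 in WT5, 0.81 in KO1 and 0.71 in KO2, so that the KO libraries outside the comparison lay above all WT libraries. The interaction was -0.38 ± 0.09 (limma, adjusted p = 0.012), and an exact relabelling of the 5 libraries gave p = 0.1, the smallest value that 10 relabellings allow. The call was made in 12 of 22 alternatives, with values of -0.47 to -0.08. It was lost without WT2, without WT3, with WT5 added, with all libraries as labelled and with the replicate number as a block. Progenitors of KO4 and KO5 held fewer progenitor markers and more neuron markers than those of WT2, WT3 and WT4, as given above, and the part of this in the interaction was not tested.

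Genes that work with the ribosome were counted by the same fits, and their counts in progenitors stand beside the 9.98% of all genes called higher and the 8.8% called lower. For glia these shares were 11.8% and 7.75%, and for microglia 3.81% and 3.56%. Between progenitors and glia 13.7% of all genes were called in either direction. Of 7 genes listed for elongation, *Eef1d* and *Eif5a* were higher in progenitors than in neurons (0.70 ± 0.08 and 0.21; limma, adjusted p = 3.52e-07 for *Eef1d*) and *Eef2* was lower (-0.22). This list also held *Tpt1*, which is not itself an elongation factor. In glia *Eef1d* was higher by 0.78 and *Eef2* lower by -0.35. Of 32 initiation factor genes 3 were higher and 1 lower in progenitors, among them *Eif4a2* (-0.67), *Pabpc1* (0.24) and *Eif4e* (0.23), and *Eif4a2* was also lower in glia (-0.75) and microglia (-0.59). Glia had 1 initiation gene higher and 2 lower, and microglia 1 higher and 3 lower.

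Of 28 ribosome biogenesis genes, which act in the nucleolus, 3 were higher in progenitors than in neurons and none lower, *Npm1* by 0.37, *Ncl* by 0.25 and *Dkc1* by 0.22, which is near the share of all genes. Between progenitors and glia 3 were higher in progenitors, *Ncl* by 0.42, *Nop56* by 0.40 and *Nolc1* by 0.32. Glia and neurons differed in none of them, and microglia had *Polr1a* higher (0.25) and *Ubtf* lower (-0.52). The 76 mitochondrial ribosomal proteins tested, which form the separate ribosome of mitochondria, gave 4 higher and 1 lower in progenitors and 4 higher and 2 lower in glia. These counts all lay below the shares of all genes. *Mrps14* led in both classes with 0.62 and 0.70. *Fau*, which fuses a ubiquitin-like protein to a ribosomal one, was higher in microglia by 0.59. Of 4 regulators *Mycn* was lower in glia (-0.31) and microglia (-0.50).

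The same lists were counted between the genotypes. In progenitors of KO, 3 of 27 biogenesis genes were lower and none higher, *Npm1* by -0.79 (limma, adjusted p = 0.00875), *Nop58* by -0.65 and *Dkc1* by -0.42, and the initiation factor gene *Eif4g2* was lower by -0.67, where 4.37% of all genes were called lower. *Npm1* and *Dkc1* are also among the genes that were higher in progenitors than in neurons, and the progenitors of KO4 and KO5 held fewer progenitor and more neuron markers, whose part in these calls was not tested. In neurons *Eif1b* (-0.68) and *Eif5* (-0.57) were the only calls among 31 initiation genes. No elongation factor, mitochondrial ribosomal protein or regulator was called in either class, and the median mitochondrial ribosomal protein differed by -0.02 in progenitors and -0.06 in neurons. In the interaction test, which called 2.62% of all genes higher and 4.4% lower in KO, biogenesis genes gave 1 call each way, *Rrp1* (0.48) and *Npm1* (-0.50). Initiation genes gave 2 higher, *Eif1b* (0.78) and *Eif4a2* (0.76), and 1 lower, *Eif4g2* (-0.35). Mitochondrial ribosomal proteins gave 1 higher, *Mrpl30* (0.40), and the elongation list 1 lower, *Tpt1* (-0.26), which is not itself an elongation factor.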

How the data were processed

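Neocortices of E18.5 mouse embryos were profiled by the authors as 1 10x Chromium 3′ library per embryo (5 WT, 4 KO). Per the labels, reads were aligned to mm10 and UMIs counted with Cell Ranger 2.1.0, and cells were filtered in Seurat 2.3.4 (R 3.6.0). WT4, WT5, KO4 and KO5 were deposited as UMI counts. WT1, WT2, WT3, KO1 and KO2 were deposited by the authors as the natural log of 1 plus UMIs per 10000, from which whole UMIs were recovered for 100% of values within 1e-06. A gene not listed in a file was counted as 0, which concerns no member. Reads from ribosomal pseudogenes can be counted to the near-identical parent gene or lost, so single member levels are uncertain to that extent.

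Cells had 1000 to 5000 genes, 1800 to 10000 UMIs, under 6% mitochondrial and at most 1% haemoglobin UMIs. The last limit removed 13.9% of cells in KO4 and 40.4% in KO5. Cells with at least 3 vascular markers were set aside. A cell was a microglial cell with at least 5 distinct microglia markers, else a progenitor with 5 progenitor markers, else glial with 5 glia markers and at most 1 progenitor marker, else a neuron with 4 neuron markers and at most 1 of each other class. Progenitors and glia could thus carry neuron markers. Transmitter type took 2 markers of 1 type and at most 1 of the other. Gates were set after marker detection, but no member's level, had been seen, and between 39.8% and 75.8% of cells fell in a class. No doublet caller was run, and the microglia, progenitor and glia gates do not remove doublets with neurons.

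Mean UMIs per 10000 over cells were formed per library and class for profiles of at least 20 cells. Genes at 0.1 or more in 3 profiles (2 in the genotype fits) were fitted as log2(mean + 1) with limma-trend and robust variances (limma 3.58.1, R 4.3.3), with Benjamini-Hochberg adjustment over all genes and a threshold of 0.05. EdgeR 4.0.16 and DESeq2 1.42.0 on summed UMIs were alternatives. Fits were tested on simulated data. Log2 values understate the change of low genes. The embryo is the replicate.

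Named are the 5 members with the largest rise and fall among the called, or the 3 of each where none was called, and always the paralogue pairs, stalk genes and *Rpsa*. The members, markers and gene lists were chosen with earlier results of these data known. Replicate numbers are shared between WT and KO labels, and same-numbered libraries correlated in their deviations by -0.07 to 0.47 in neurons and by 0.15 to 0.25 in progenitors. The numbers were thus not taken to pair the neurons, and for progenitors, where all 3 pairs were above 0.1, the blocked count is given beside the result.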

Additional observations from a re-analysis of the deposited data

Results flagged for a closer look

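In groups of 4 to 10 libraries, a library was singled out when its distance from the nearest other library took up more of the range of the group than Dixon's 95% limit allows. Of 85 groups tested 5 gave such a library, and chance alone gives about 1 in 20. *Rps27* in neurons was at 55.8 UMIs per 10000 in WT1, with the other WT libraries at 26.7 to 34.0, and *Rps27l* in neurons of WT1 was at 4.21, with the others at 2.60 to 2.92. *Rps27l* in neurons of KO1 was at 4.50, with the other KO libraries at 2.94 to 3.13. The ratio of large to small subunit UMIs in neurons of KO1 was 1.20, with the others at 1.29 to 1.30. *Rpl3* in progenitors of KO2 was at 22.4, with the others at 16.9 to 17.3. WT1, KO1 and KO2 are the libraries with the fewest kept cells, 126, 331 and 118.

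The difference between progenitors and neurons of *Rpl22l1* differed between the genotypes in the libraries compared, by -0.38 on the log2 scale (interaction test of limma, adjusted p = 0.012). It was 0.47 to 0.66 in the WT libraries and 0.18 and 0.22 in KO5 and KO4. KO1 and KO2, outside the comparison, were at 0.81 and 0.71, above all WT libraries. Exact relabelling gave p = 0.1, the smallest value possible. The call was lost with WT5 added, with all libraries as labelled, without WT2 and without WT3.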

How the results depend on the processing

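The counts are members called per comparison. The share of all genes called is not given beside each, so a change in a count need not be particular to the members. Between progenitors and neurons (17 as reported) they were 6 with edgeR and TMM, 31 with edgeR and RLE, 28 with DESeq2, 10 without a filter, 7 with the gate on thinned cells, 3 in cells under 3000 UMIs, 10 with profiles of 10 cells, 2 without the library term and 9 in the libraries of the genotype comparison, and 9 to 18 when a library was left out. Between glia and neurons (6) they were 10 with RLE, 3 without a filter, 3 centred on the median gene, 0 in cells under 3000 UMIs, 3 with profiles of 10 cells, 2 without the library term, and 2 to 8 with a library left out. Between microglia and neurons (13) they were 1 with TMM, 59 with RLE, 53 with DESeq2, 27 with 1 marker more in the gate, 1 in cells under 3000 UMIs, 0 without the library term, and 1 to 17 with a library left out. Between progenitors and glia (0) they were 2 with 1 marker more, 2 with the gate on thinned cells, 1 with profiles of 10 cells, 1 in the libraries of the genotype comparison, and 0 to 1 with a library left out. Between glutamatergic and GABAergic neurons (0) 1 was called with the gate on thinned cells, and a gate of 1 marker more could not be fitted.

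Between the genotypes in progenitors (7) the counts were 14 with TMM and with RLE, 0 without a filter, 3 with 1 marker more and 11 with 1 marker fewer, 22 in cells under 3000 UMIs, 0 with WT5 added, 0 with all libraries as labelled, 0 with the scale of the deposited file as a term, and 0 to 36 with a library left out. In neurons (0) they were 2 with TMM and with RLE, 23 with DESeq2, and 0 to 36 with a library left out. For the interaction (1) they were 3 with TMM, 3 with RLE, 0 with DESeq2, 0 without a filter, 3 with haemoglobin cells kept, 0 with the gate on thinned cells, 8 with 1 marker fewer, 0 with WT5 added, 0 as labelled, 0 with the scale as a term, and 0 to 7 with a library left out. With the replicate number as a block, 0 members were called in progenitors, 0 in neurons and 0 for the interaction. Same-numbered WT and KO libraries correlated by -0.07 to 0.47 in neurons and by 0.15 to 0.25 in progenitors, and WT5 and KO4, which share no number, by 0.45 in neurons. The block fits also take in libraries outside the comparison. The gate with 1 marker fewer and the scale term were added after the data had been seen. Fits with the scale term took all libraries as labelled. The causes of these changes were not tested.

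The summed difference of glia and neurons was -62.1 in cells under 3000 UMIs, where 1 library was left, -49.4 with profiles of 10 cells and -32.6 with the gate on thinned cells, and ran from 10.2 to 126 with a library left out. That of progenitors ran from 77.9 to 121 and that of microglia from 121 to 442. No direction of a called member was reversed. A pseudocount of 0.1 moved the median of all genes to -0.21 for microglia and to -0.14 and -0.13 for KO progenitors and neurons, and TMM to -0.17 for microglia. Glia rest on 37 to 197 cells and microglia on 30 and 58.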

Other observations

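Pseudogene symbols with "-ps", 15 of which were listed in at least 1 file, summed to 3.38 to 7.37 UMIs per 10000 in neurons, between 0.185% and 0.461% of the summed level of the members. Cells with vascular markers, which belong to none of the 4 classes, held large subunit UMIs of 1092 per 10000 in WT2, 1016 in WT3 and 1144 in WT4, against 1208 in KO4 and 1177 in KO5, with small subunit UMIs of 809, 739 and 867 and of 937 and 902. These cells numbered 28, 17, 54, 105 and 31 in the same order, so that WT3 lay below the floor of 20 cells used elsewhere. WT5, with 60 such cells, was at 1226 and 950. Cells that fell in no class held 1055, 961 and 1091 large subunit UMIs per 10000 in WT2, WT3 and WT4, against 1267 in KO4 and 1213 in KO5. Outside the comparison such cells were at 1206 in WT1, 1211 in WT5, 1093 in KO1 and 1140 in KO2, so the labels overlapped.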
